A study of Mus musculus with 2 samples.

Results

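The 37 endothelial identity genes described here were a list of named genes, found by symbol in the deposited table of all genes. Each of the 37 had 1 row among the 23235 genes of that table, and 35 of the 37 had a mean FPKM of 1 or more over both libraries, as had 11751 genes in all. FPKM counts fragments relative to transcript length and sequencing depth, so levels of different genes can be compared. Of the 37 genes, 33 were taken as genes of blood vessel endothelium and 4 (Flt4, Prox1, Lyve1 and Pdpn) as genes of lymphatic endothelium.

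The study compared 1 RNA-seq library of Pax7 KO cells with 1 library of WT cells. Both were cultures labelled as activated satellite cells, the muscle stem cells, from hind limb and back muscle of neonatal mice. The strains named in the labels are Pax7CreER/+ and Pax7flox/flox, and tamoxifen was given at 75 µg per g of body weight from day 5 on 5 consecutive days. Cre is driven from Pax7, the paired-box factor of satellite cells. The labels call the other group WT without giving its alleles or saying whether it had tamoxifen. Number of animals, pooling and any sorting on surface proteins are not given in the sources used here. Cells were freed with pronase, enriched by sedimentation and grown on Matrigel with serum and bFGF. With 1 library per genotype no test between the genotypes was possible, and every difference is one between 2 cultures.

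Endothelial cells line blood and lymphatic vessels. They receive VEGF through Flt1 and Kdr, and VEGF-C through Flt4. Angiopoietins act on them through the kinase Tek, with Tie1 beside it. Their junctions are built from VE-cadherin, claudin-5 and Pecam1, and their identity is kept by ETS factors such as Erg and Fli1, by Sox7, Sox17 and Sox18, and, in lymphatic vessels, by Prox1. In muscle, capillaries run along each fibre, and satellite cells lie close to them.

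In what follows, the log2 ratio of a gene is log2((KO FPKM + 1) / (WT FPKM + 1)). Pax7 itself was at 0.769 FPKM in KO and 3.21 FPKM in WT. Most genes had higher deposited values in the KO library: the median of the 11751 genes was a log2 ratio of 0.42, and 88.6% of them lay above 0. A value relative to the median gene has 0.42 subtracted. The summed FPKM of the whole table was 405217 in KO and 289269 in WT. From the steps between low values, the libraries had an apparent size of about 22200000 fragments in KO and 26800000 in WT. Fragments per gene estimated from these steps gave 95% exact (Clopper-Pearson) counting intervals for log2(KO FPKM / WT FPKM), without a pseudocount. These intervals reflect counting alone, and the spread among cultures and animals is not known.

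Blood endothelial genes stood at higher deposited values in the Pax7 KO library. All 33 had a log2 ratio above 0 and 26 of the 33 (78.8%) lay above the median gene, with a median log2 ratio of 0.78, or 0.35 relative to the median gene. The 7 below the median gene were Plvap, Apln, Eng, Vwf, Clec14a, Tal1 and Sox17, whose direction turns when values are centred on it. Without a pseudocount Tal1 lay above the median gene, at 0.53 beside 0.50. The counting intervals of Tal1 and Clec14a held the median gene, so their side of it is not settled. At least 2-fold higher were 8 of the 33, beside 5.06% of all genes, and none was 2-fold lower, beside 0.689% of all genes. These 8 were Cldn5, Gpihbp1, Emcn, Esm1, Egfl7, Lmo2, Cd34 and Esam. Relative to the median gene 2 of them, Cldn5 and Gpihbp1, were at least 2-fold higher, beside 1.35% of all genes, and none lower, beside 1.45%. In bulk RNA of whole cultures, more cells of a type and more RNA per cell cannot be told apart, nor can fewer cells and less RNA per cell. Summed, the 33 genes stood at 1746 FPKM in KO and 974 FPKM in WT, which is 0.431% of the summed FPKM in KO and 0.337% in WT.

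Of the 8 genes, 5 had a log2 ratio between 1.00 (Esam) and 1.05 (Esm1), so the count rests on values at the limit. Next to Esam inside the limit stood Cd34 at 1.02, and just outside it stood Aplnr at 0.96. Without a pseudocount 9 blood genes were at least 2-fold higher in FPKM, the 8 and Aplnr, beside 10.2% of all genes. The authors' deposited table of higher genes holds 6 of the 33 (Cldn5, Gpihbp1, Emcn, Egfl7, Lmo2 and Cd34) and 5.2% of the genes of mean FPKM 1 or more. It rests on the same 2 libraries, and the sources used here do not state its rule.

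**Figure D1:**
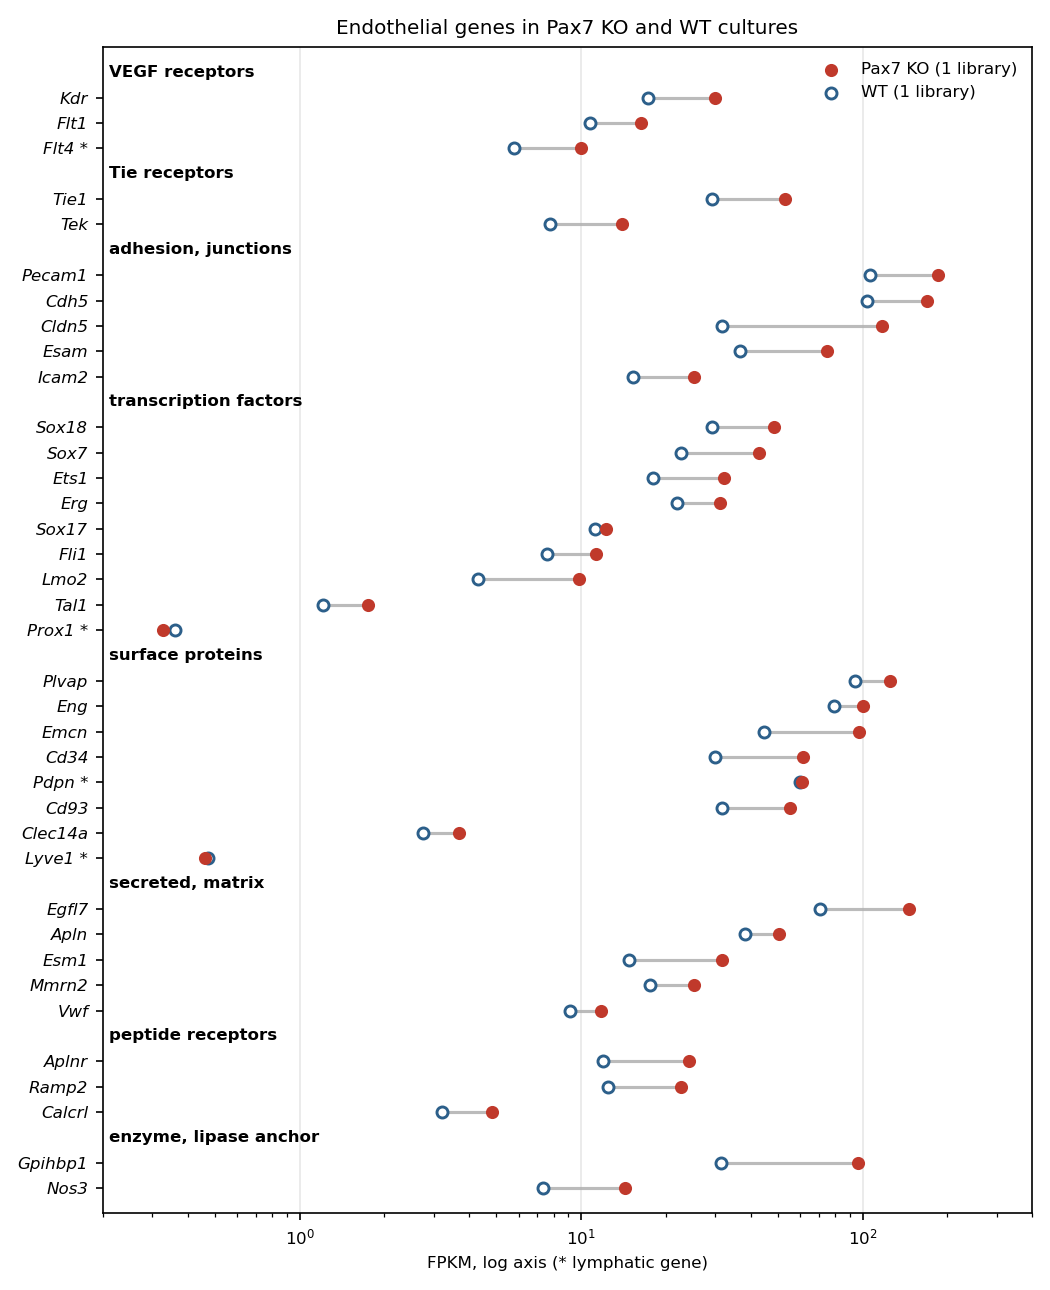
Deposited FPKM of the 37 endothelial genes (log axis), in Pax7 KO (filled) and WT (open), grouped by role, 1 library per genotype; an asterisk marks a lymphatic gene. Each blood gene lies further right in KO, from Tal1 at 1.75 FPKM in KO and 1.21 FPKM in WT to Pecam1 at 185 FPKM in KO and 107 FPKM in WT, while Pdpn, Lyve1 and Prox1 lie almost on top of their WT values.

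Of the 5 junction and adhesion genes, 2 were at least 2-fold higher, Cldn5 and Esam, beside 5.06% of all genes. Pecam1 and Cdh5 had the highest levels of the 37 genes in KO and in WT. Pecam1 (chromosome 11, 106515532 to 106576595, mm9), the adhesion molecule CD31, was at 185 FPKM in KO and 107 FPKM in WT. Cdh5 (chromosome 8, 106625525 to 106668402), VE-cadherin of the adherens junction, was at 170 FPKM in KO and 103 FPKM in WT. In all, 304 genes of the table had a higher value than Pecam1 in KO, and 393 had one in WT. The log2 ratios of Pecam1 and Cdh5 were 0.79 and 0.71, with counting intervals of 0.76 to 0.84 and 0.68 to 0.75 without a pseudocount, so both were above the median gene and short of 2-fold.

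Cldn5 (chromosome 16, 18776940 to 18778355), claudin-5 of endothelial tight junctions, had the highest ratio of the 37 genes. It stood at 117 FPKM in KO and 31.8 FPKM in WT, 3.69-fold higher, and its log2 counting interval was 1.79 to 1.98. Among the 11751 genes, 82 had a higher log2 ratio than its 1.85. The level of Cldn5 relative to Cdh5 was 0.691 in KO and 0.307 in WT, so the tight junction gene differed more than the adherens junction gene measured in the same cultures. Esam, an adhesion molecule of endothelial tight junctions, was at 74.7 FPKM in KO and 36.8 FPKM in WT. Icam2, a ligand of leukocyte integrins, was at 25.2 FPKM in KO and 15.3 FPKM in WT, within 2-fold.

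Among the receptor kinases, none of the 2 blood VEGF receptors or the 2 Tie receptors was 2-fold higher, beside 5.06% of all genes. Kdr, the main signalling receptor of VEGF-A, was at 29.9 FPKM in KO and 17.3 FPKM in WT, a log2 ratio of 0.76. Flt1, the VEGF receptor that also acts as a decoy, was at 16.3 FPKM in KO and 10.7 FPKM in WT, a log2 ratio of 0.56. The counting intervals were 0.72 to 0.86 for Kdr and 0.52 to 0.69 for Flt1 and did not overlap. The Kdr level was 1.84 times that of Flt1 in KO and 1.61 times in WT. Tie1 was at 52.9 FPKM in KO and 29.3 FPKM in WT, and Tek at 13.9 FPKM in KO and 7.73 FPKM in WT. Both were higher by nearly the same factor, and the level of Tie1 was 3.79 times that of Tek in KO and 3.78 times in WT.

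Of the 3 genes of peptide receptors none was 2-fold higher, beside 5.06% of all genes, and Aplnr came closest. Aplnr, the receptor of apelin, was at 24.1 FPKM in KO and 11.9 FPKM in WT, a log2 ratio of 0.96. Its ligand gene Apln was at 50.5 FPKM in KO and 38.2 FPKM in WT, a log2 ratio of 0.39, just under the median gene. The level of Apln was thus 2.09 times that of Aplnr in KO and 3.20 times in WT. Calcrl and Ramp2 encode the receptor and the accessory protein that together bind adrenomedullin. Ramp2 was at 22.6 FPKM in KO and 12.4 FPKM in WT. Calcrl was at 4.81 FPKM in KO and 3.19 FPKM in WT. Their counting intervals, 0.69 to 1.03 and 0.40 to 0.78, overlapped.

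The 8 transcription factors above the limit of 1 FPKM had log2 ratios from 0.11 to 1.03, with a median of 0.62. At least 2-fold higher was 1 of the 8, Lmo2, beside 5.06% of all genes. Lmo2, a LIM-domain bridge protein of blood and vessel progenitors, was at 9.87 FPKM in KO and 4.32 FPKM in WT, on about 356 fragments in KO and 188 in WT. Tal1, the bHLH factor it binds, was at 1.75 FPKM in KO and 1.21 FPKM in WT, the lowest blood gene in both libraries. Of the ETS factors, Ets1 was at 32.1 FPKM in KO and 17.9 FPKM in WT, a log2 ratio of 0.80. Fli1 was at 11.3 FPKM in KO and 7.54 FPKM in WT. Erg was at 31.2 FPKM in KO and 21.9 FPKM in WT. Their log2 ratios of 0.53 and 0.49 were close to the median gene, and Erg was 2.76 times the level of Fli1 in KO and 2.90 times in WT.

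The SoxF factors Sox7, Sox17 and Sox18, which overlap in function in vessels, had unlike ratios. Sox7 was at 42.8 FPKM in KO and 22.6 FPKM in WT, and Sox18 at 48.5 FPKM in KO and 29.2 FPKM in WT. Sox17 (chromosome 1, 4481009 to 4486494), the SoxF factor known from arteries, was at 12.2 FPKM in KO and 11.2 FPKM in WT. Its log2 ratio of 0.11 was the lowest of the 33 blood genes. Against the median gene it was -0.31, so the direction of Sox17 depends on the scaling. The counting interval of Sox17, -0.01 to 0.26, lay below those of Sox7 (0.84 to 1.00) and Sox18 (0.62 to 0.84). Relative to Sox17, the level of Sox7 was 3.50 in KO and 2.02 in WT.

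Promoters of 18 of the 37 genes were found in RefSeq (GRCm38.p6, a later build than the mm9 of the table), as 24 windows from 250 bases before to 50 after a start. Shown are the gene with the highest ratio (Cldn5), the next surface protein gene (Emcn), a Tie receptor gene at an intermediate ratio (Tie1) and the lymphatic gene whose levels differed least of those above the limit (Pdpn). Capitals mark GGAA, the core that ETS factors bind, on either strand (TTCC where it lies on the other). Each is written 5′ to 3′ on the strand of the gene.
Cldn5 promoter, chr16:18776597-18776896, plus strand: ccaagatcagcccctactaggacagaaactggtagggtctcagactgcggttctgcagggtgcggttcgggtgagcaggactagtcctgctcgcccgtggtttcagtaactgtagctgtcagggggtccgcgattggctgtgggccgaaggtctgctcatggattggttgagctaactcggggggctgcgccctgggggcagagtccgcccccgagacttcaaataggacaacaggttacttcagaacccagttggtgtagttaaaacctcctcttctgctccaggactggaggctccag
Emcn promoter, chr3:137340828-137341127, plus strand: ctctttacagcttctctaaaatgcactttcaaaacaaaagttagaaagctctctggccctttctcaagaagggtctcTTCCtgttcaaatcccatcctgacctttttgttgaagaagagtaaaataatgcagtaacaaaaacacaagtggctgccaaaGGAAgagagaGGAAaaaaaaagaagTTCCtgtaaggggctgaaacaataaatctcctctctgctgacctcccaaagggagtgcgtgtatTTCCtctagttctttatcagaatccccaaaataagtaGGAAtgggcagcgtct
Tie1 promoter, chr4:118489800-118490099, minus strand: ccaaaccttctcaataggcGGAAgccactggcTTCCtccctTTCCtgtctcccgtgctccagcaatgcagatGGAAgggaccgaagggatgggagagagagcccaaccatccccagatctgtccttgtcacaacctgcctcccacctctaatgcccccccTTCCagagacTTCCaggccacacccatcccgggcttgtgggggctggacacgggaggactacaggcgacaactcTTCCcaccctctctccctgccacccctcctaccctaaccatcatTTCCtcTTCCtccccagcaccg
Pdpn promoter, chr4:143299515-143299814, minus strand: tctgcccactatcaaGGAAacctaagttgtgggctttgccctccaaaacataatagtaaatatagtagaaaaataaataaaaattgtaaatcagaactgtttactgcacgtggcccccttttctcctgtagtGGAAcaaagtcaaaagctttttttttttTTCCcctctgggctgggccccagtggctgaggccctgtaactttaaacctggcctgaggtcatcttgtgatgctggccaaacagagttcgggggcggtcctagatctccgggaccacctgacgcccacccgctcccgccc

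GGAA occurred 9 times in the window of Tie1, 6 times in that of Emcn, 3 times in that of Pdpn and 0 times in that of Cldn5. It is common: 23 of the 24 windows of endothelial genes (95.8%) and 96.0% of all 32851 windows held it, with a mean of 3.75 and 3.52 matches. The longer ETS motif CCGGAAG, on either strand and overlapping GGAA, was in 0 of the 24 windows and in 8.86% of all windows. The SOX core ACAAT, on either strand, was in 7 of the 24 (29.2%) and in 31.0% of all, and the GATA motif GATAAG, on either strand, in 3 of the 24 (12.5%) and in 7.44% of all. TATAAA on the strand of the gene was in 1 window, that of Flt1, and in 8.32% of all. These letters describe the windows only.

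Of the 7 surface proteins above the limit, 2 were at least 2-fold higher, Emcn and Cd34, beside 5.06% of all genes. Emcn (chromosome 3, 137004042 to 137094033), endomucin of capillaries and veins, was at 97.4 FPKM in KO and 44.7 FPKM in WT. Cd34, a sialomucin that satellite cells and blood progenitors also carry, was at 61.7 FPKM in KO and 30.0 FPKM in WT. Cd93, a lectin-like receptor of endothelial cells, was at 55.2 FPKM in KO and 31.6 FPKM in WT. Those 3 lay above the median gene. Plvap, which forms the diaphragms of fenestrae and caveolae, was at 125 FPKM in KO and 94.1 FPKM in WT. Eng, endoglin, a co-receptor of the TGF-beta family, was at 101 FPKM in KO and 79.2 FPKM in WT. Clec14a, a lectin-like receptor of the same group as Cd93, was at 3.69 FPKM in KO and 2.74 FPKM in WT. These 3 had log2 ratios of 0.41, 0.34 and 0.32, below the median gene, so they were higher only as deposited. For Clec14a the counting interval, 0.21 to 0.64, held the median gene.

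Of the 5 secreted and matrix proteins, 2 were at least 2-fold higher, beside 5.06% of all genes. Egfl7 was at 146 FPKM in KO and 70.6 FPKM in WT. It encodes a secreted EGF-domain protein of vessels. Esm1, endocan of sprouting tip cells, was at 31.6 FPKM in KO and 14.8 FPKM in WT. Mmrn2, the matrix ligand of Cd93 and Clec14a, was at 25.2 FPKM in KO and 17.5 FPKM in WT, a log2 ratio of 0.50. Vwf, von Willebrand factor of endothelial storage granules, was at 11.7 FPKM in KO and 9.14 FPKM in WT, a log2 ratio of 0.33. Egfl7 and Esm1 passed 2-fold as deposited, whereas Mmrn2 lay near the median gene and Vwf 0.09 below it.

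Gpihbp1 (chromosome 15, 75427088 to 75428643), which anchors lipoprotein lipase in capillaries, had the second highest ratio. It was at 96.2 FPKM in KO and 31.4 FPKM in WT, 3.06-fold higher, and its log2 counting interval was 1.52 to 1.71. Lpl, the lipase it holds, was at 87.0 FPKM in KO and 25.9 FPKM in WT. Lpl is also made by adipocytes, whose markers were higher in the same library, as given with the genes of capillary lipid uptake. Nos3, endothelial nitric oxide synthase, was at 14.3 FPKM in KO and 7.35 FPKM in WT, a log2 ratio of 0.87.

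**Figure D2:**
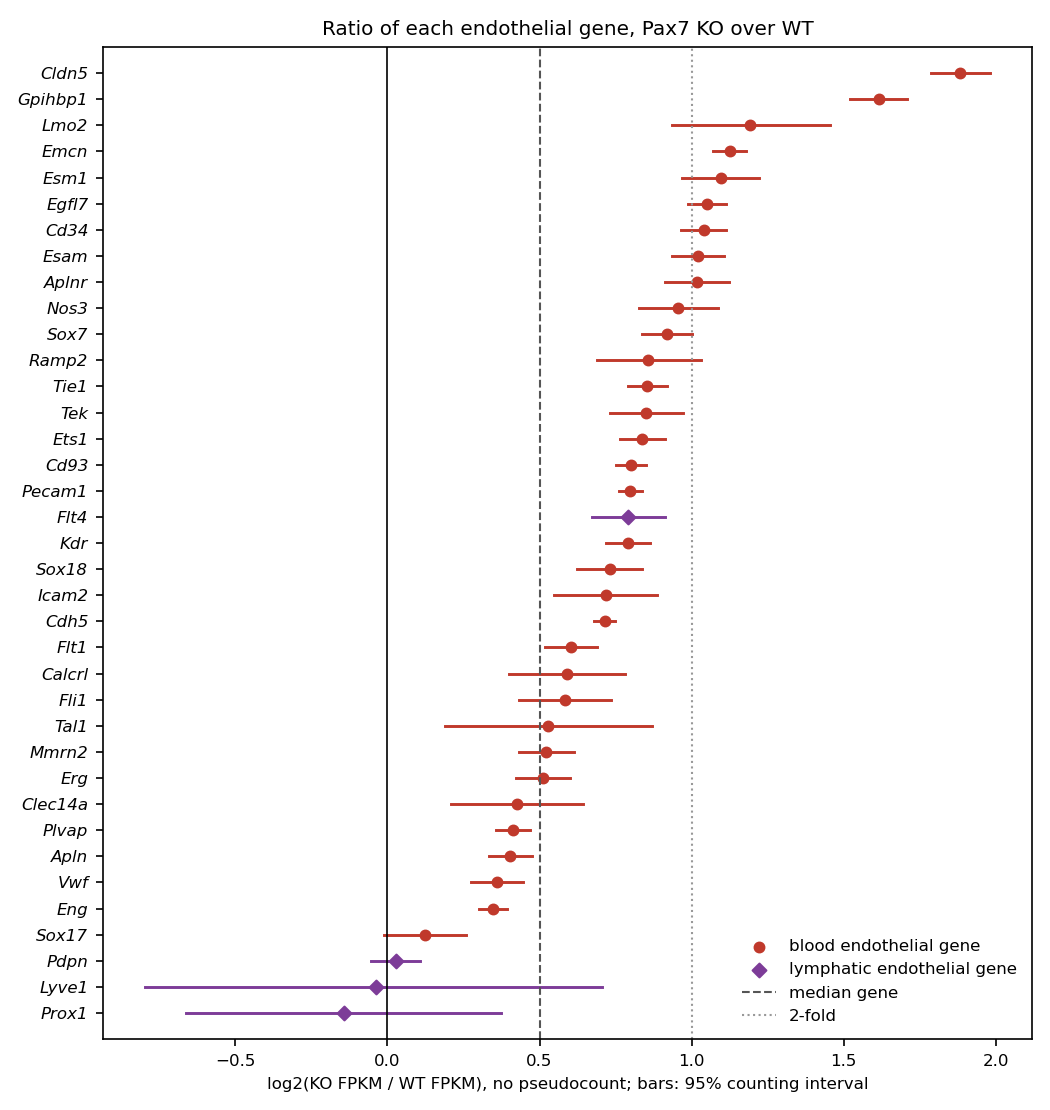
log2(KO FPKM / WT FPKM) without a pseudocount for the 37 endothelial genes, in order of the ratio; bars are 95% counting intervals, the dashed line is the median gene (0.50) and the dotted line 2-fold. Cldn5 and Gpihbp1 stand apart at 1.88 and 1.62, Sox17 lies lowest of the blood genes (circles) at 0.12, and of the lymphatic genes (diamonds) Flt4 lies at 0.79 and the other 3 near 0.

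Taking counting error alone, 22 of the 33 blood genes had an interval wholly above the median gene, 5 wholly below it and 6 across it. The same count was not made over all genes, so whether these shares are unusual is not known. Without a pseudocount the median gene had a log2 value of 0.50. The 5 below were Plvap, Apln, Vwf, Eng and Sox17. The quartiles of the blood genes were log2 ratios of 0.49 and 0.96, an interquartile range of 0.47 beside 0.43 for all genes, so the blood genes were spread about as widely as genes in general.

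The lymphatic genes did not share 1 value. Flt4 (chromosome 11, 49423181 to 49466241), the receptor of VEGF-C that sprouting blood vessels also use, was at 10.0 FPKM in KO and 5.79 FPKM in WT. Its log2 ratio was 0.70, and the level of Kdr was 2.99 times that of Flt4 in both libraries. Pdpn (chromosome 4, 142857325 to 142889410), podoplanin, a mucin that fibroblasts make as well, was at 61.1 FPKM in KO and 60.0 FPKM in WT. Its log2 ratio of 0.03 had a counting interval of -0.05 to 0.11 without a pseudocount, and it was -0.40 against the median gene, so the direction of Pdpn turns with the scaling.

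Prox1 and Lyve1 did not pass the limit of 1 FPKM. Prox1 (chromosome 1, 191945658 to 191994559), the factor that sets lymphatic identity, was at 0.326 FPKM in KO and 0.360 FPKM in WT, on about 57 fragments in KO and 76 in WT. Lyve1 (chromosome 7, 117994121 to 118006467), a hyaluronan receptor of lymphatic vessels and some macrophages, was at 0.460 FPKM in KO and 0.473 FPKM in WT, on about 29 fragments in KO and 36 in WT. Their counting intervals, -0.66 to 0.37 and -0.80 to 0.71, held 0, so a difference in FPKM was not detectable at this depth. The interval of Lyve1 also held the median gene, and that of Prox1 lay below it. The level of Pecam1 was 569 times that of Prox1 in KO and 296 times in WT.

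None of the 2 lymphatic genes above the limit was 2-fold higher, beside 5.06% of all genes, and their median log2 ratio was 0.36, against 0.78 for the 33 blood genes. With 2 genes the comparison of blood and lymphatic genes is a description. Of 15 other genes used for lymphatic endothelium, some of them shared with veins, 10 passed the limit, with a median of 0.35. Ccl21a, a chemokine of lymphatic endothelium, was at 0.227 FPKM in KO and 1.79 FPKM in WT, and was the 1 gene of that list at least 2-fold lower, beside 0.689% of all genes. Ccl21a passed the limit of 1 FPKM only through its WT value, so the limit itself favoured a lower ratio. Fgl2, Nrp2 and Angpt2 followed in size at log2 ratios of 0.65, 0.63 and 0.49. Mmrn1 and Stab2 were low, at 0.0885 and 0.111 FPKM in KO and 0.115 and 0.125 FPKM in WT.

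**Figure D3:**
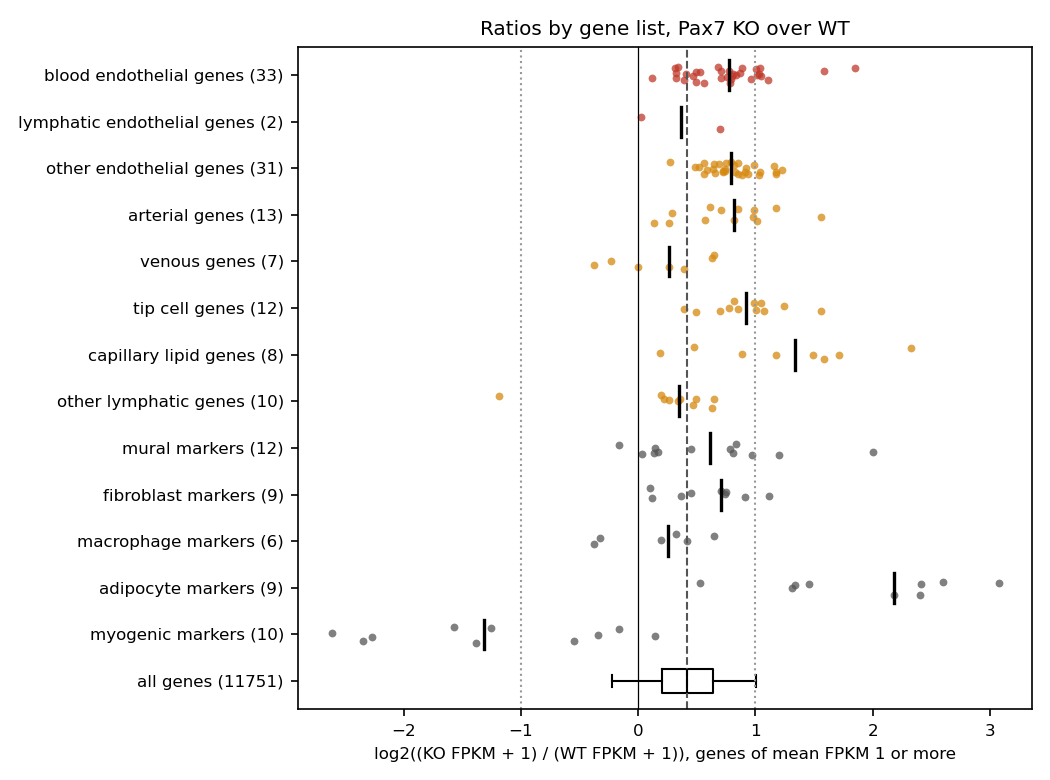
log2((KO FPKM + 1) / (WT FPKM + 1)) of single genes (points) by list, with the number of genes of mean FPKM 1 or more in brackets; short lines are medians, the box shows the interquartile range of all genes with whiskers at their 5th and 95th percentiles, dashed is the median gene and dotted 2-fold either way. Blood endothelial genes have a median of 0.78, venous genes of 0.26, adipocyte markers of 2.18 and myogenic markers of -1.31; horizontal position alone carries meaning within a list.

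Other endothelial genes gave values like those of the blood genes. They were chosen with earlier results of these data known and come from the same 2 libraries, so they are no independent support. Of 33 further genes known from endothelial cells, 31 passed the limit, 30 of the 31 lay above the median gene, and their median log2 ratio was 0.79. At least 2-fold higher were 6 of the 31, beside 5.06% of all genes, and none relative to the median gene, beside 1.35%. Gimap6, a small GTPase, was at 118 FPKM in KO and 49.7 FPKM in WT, a log2 ratio of 1.23. Sema3g, a semaphorin of arterial endothelium, had a log2 ratio of 1.18, as had Afap1l1, an actin-associated protein. Bcl6b, a repressor of vessels, had one of 1.16.

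Arterial genes had a median log2 ratio of 0.82 (13 of 14 above the limit) and venous genes one of 0.26 (7 of 8), beside 0.42 for all genes, a description with no test. The lists share genes with each other, such as Sema3g, Dll4 and Nrp2. Of the 13 arterial genes 3 were at least 2-fold higher, Dll4, Sema3g and Efnb2, beside 5.06% of all genes, and relative to the median gene 1, Dll4, beside 1.35%. Dll4, the Notch ligand of arteries and tip cells, was at 59.7 FPKM in KO and 19.6 FPKM in WT. Efnb2, ephrin-B2, was at 51.1 FPKM in KO and 24.8 FPKM in WT, and the repulsion receptor Unc5b had a log2 ratio of 0.99. None of the 7 venous genes passed 2-fold in either direction, beside 5.06% of all genes higher and 0.689% lower. Ephb4, the receptor of ephrin-B2, and Nrp2, a VEGF-C co-receptor, had the largest log2 ratios of that list, 0.65 and 0.63. Sele, E-selectin, was at 0.39. Vcam1, a leukocyte adhesion molecule that muscle progenitors also express, was at 12.0 FPKM in KO and 15.9 FPKM in WT. Sox17, known from arteries, had a log2 ratio of 0.11 beside the arterial median.

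Tip cell genes, of which Esm1 and Apln belong to the 37, had a median of 0.92, with 11 of 12 above the median gene. As deposited 5 of 12 were at least 2-fold higher, beside 5.06% of all genes, and relative to the median gene 1 of 12, Dll4, beside 1.35%. Besides Dll4 and Esm1 the 5 were Cxcr4, a chemokine receptor, Adm, adrenomedullin, and Kcne3, a potassium channel subunit. Cxcr4 was at 135 FPKM in KO and 56.3 FPKM in WT, Adm at 22.7 FPKM in KO and 10.3 FPKM in WT, and Kcne3 at 3.23 FPKM in KO and 1.11 FPKM in WT. Apln was the 1 gene of that list below the median gene.

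Of the ligands, Vegfa had a lower ratio than Kdr and Flt1, Pgf a higher one, and Angpt2 a lower one than Tek. Vegfa was at 38.4 FPKM in KO and 32.4 FPKM in WT, a log2 ratio of 0.24. Pgf, placental growth factor, which binds Flt1, was at 52.7 FPKM in KO and 22.1 FPKM in WT. It was the 1 gene of 7 VEGF ligands and co-receptors at least 2-fold higher, beside 5.06% of all genes, and the co-receptors Nrp1 and Nrp2 and the ligand Figf had log2 ratios of 0.71, 0.63 and 0.51. Among angiopoietins and related genes, 4 of 8 passed the limit, Angptl2, Angptl4, Ptprb and Angpt2, at log2 ratios of 0.68, 0.60, 0.56 and 0.49, all within 2-fold. Angpt2, the angiopoietin that endothelial cells make, was at 99.8 FPKM in KO and 70.5 FPKM in WT, whereas Angpt1, from mural cells, was at 0.426 FPKM in KO and 0.470 FPKM in WT. Of the peptide partners, Ramp3 was at 2.78 FPKM in KO and 1.47 FPKM in WT, while Adm2 and Ramp1 had log2 ratios of -0.39 and -0.09. None of 15 ETS, GATA, Klf and other partner factors above the limit passed 2-fold, beside 5.06% of all genes higher and 0.689% lower. Their median was 0.50, and the largest were Ets2, Klf4, Foxc1 and Mef2c, at 0.83, 0.82, 0.76 and 0.72. Etv2, the ETS factor of the first endothelial cells, was at the lowest listed value in KO and at 0.192 FPKM in WT.

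Genes of capillary lipid uptake had a median of 1.34, with 5 of 8 at least 2-fold higher, beside 5.06% of all genes, and 4 of 8 relative to the median gene, beside 1.35%. The 5 were Fabp4, Lpl, Gpihbp1, Cd36, the fatty acid translocase, and Tcf15, a partner of Meox2 in capillaries that take up fatty acids. Fabp4 was at 899 FPKM in KO and 179 FPKM in WT, and Cd36 at 29.8 FPKM in KO and 9.95 FPKM in WT. Tcf15 was at 4.63 FPKM in KO and 1.49 FPKM in WT. Fabp4, Lpl and Cd36 are adipocyte genes as well, and 8 of 9 adipocyte markers were at least 2-fold higher, beside 5.06% of all genes. The 10 adipocyte markers summed to 332 FPKM in KO and 72.6 FPKM in WT. Retn and Adipoq, hormones of fat cells, were at 71.0 and 40.4 FPKM in KO and at 10.9 and 3.91 FPKM in WT. The part of adipocytes in the values of Gpihbp1 and Cldn5 was not tested.

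Markers of other cells in the cultures were set beside these values. Of the myogenic markers, which go with the label of the cultures, 6 of 10 above the limit were at least 2-fold lower in KO, beside 0.689% of all genes. The 6 include Pax7, the gene targeted by the design. Pax7 and Fgfr4, at 0.769 and 0.526 FPKM in KO and 3.21 and 6.76 FPKM in WT, passed the limit only through WT. Des and Itga7, among the most abundant of the list, had log2 ratios of -0.16 and -0.34. The 12 listed summed to 149 FPKM in KO and 308 FPKM in WT, with Myod1 at 17.9 FPKM in KO and 90.4 FPKM in WT. Pecam1 and Cdh5 thus stood above Myod1, the muscle determination factor, in both libraries. Mural markers, of pericytes and smooth muscle, summed to 1189 FPKM in KO and 1038 FPKM in WT, with a median log2 ratio of 0.62 over 12 genes. Of the 12 mural markers, 2 were at least 2-fold higher, beside 5.06% of all genes, and 5 did not lie above the median gene. Acta2 alone was at 642 FPKM in KO and 626 FPKM in WT. The pericyte channel gene Kcnj8, with the largest ratio of that list, was at 21.1 FPKM in KO and 4.53 FPKM in WT. Fibroblast markers summed to 275 FPKM in KO and 176 FPKM in WT, with a median of 0.71 over 9 genes. Of the 9, 1 was at least 2-fold higher, beside 5.06% of all genes, and 3 did not lie above the median gene. The 1 was Dcn, decorin, at 64.9 FPKM in KO and 29.4 FPKM in WT. Col1a1, the most abundant of the list, was at 65.6 FPKM in KO and 60.9 FPKM in WT, a log2 ratio of 0.10. Keratinocyte markers summed to 85.3 FPKM in KO and 13.8 FPKM in WT, with Krt14 at 19.9 FPKM in KO and 0.496 FPKM in WT. Krt5 was at 18.9 FPKM in KO and 0.212 FPKM in WT, and Krt6a at 11.1 FPKM in KO and 0.157 FPKM in WT. Of the 8 keratinocyte markers above the limit, 4 were at least 2-fold higher, beside 5.06% of all genes. Among these 4, Krt14, Krt5 and Krt6a passed the limit only through their KO values. The limit itself thus favoured a higher ratio, and the count cannot be read against that share. The log2 ratios of the 8 ran from -0.15 to 4.03, so they did not move together. The part of these cells in the endothelial values was not tested.

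Blood cells share some of the 37 genes, such as Pecam1, Cd34, Fli1, Lmo2 and Tal1. Most markers of those cells were low. The 14 macrophage and leukocyte markers summed to 31.9 FPKM in KO and 25.9 FPKM in WT. None of the 6 above the limit was past 2-fold, beside 5.06% of all genes higher and 0.689% lower. Lyz2, lysozyme, was at 13.0 FPKM in KO and 7.93 FPKM in WT. Ptprc, the pan-leukocyte CD45, was at 0.226 FPKM in KO and 0.318 FPKM in WT, and the macrophage receptor Csf1r at 0.379 FPKM in KO and 0.488 FPKM in WT. Aif1 was at the lowest listed value in KO and at 0.187 FPKM in WT. The 10 platelet and megakaryocyte markers summed to 27.6 FPKM in KO and 17.8 FPKM in WT. Ppbp made up 21.3 FPKM of this in KO and 11.3 FPKM in WT. Only Ppbp and Pf4 passed the limit, and they went opposite ways, at log2 ratios of 0.86 and -0.56. Pf4 was at 2.36 FPKM in KO and 3.94 FPKM in WT. Neither was past 2-fold, beside 5.06% of all genes higher and 0.689% lower. Itga2b, below the limit, was at 0.894 FPKM in KO and 0.546 FPKM in WT. Without 9 blood genes chosen as also expressed by other cell types (Cd34, Eng, Ets1, Fli1, Lmo2, Tal1, Icam2, Vwf and Pecam1), 24 were left. Of the 24, 6 were at least 2-fold higher, beside 5.06% of all genes, and the median was 0.78. Whether other cells express these 24 was not tested.

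**Figure D4:**
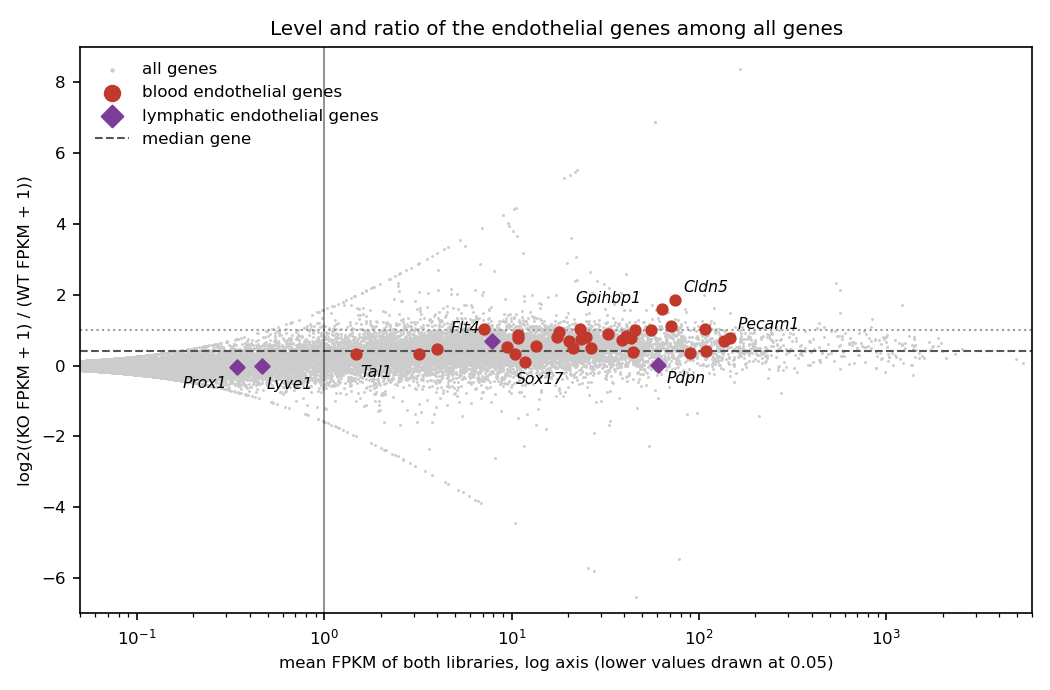
Mean FPKM of both libraries (log axis) against log2((KO FPKM + 1) / (WT FPKM + 1)) for all genes (grey), blood endothelial genes (circles) and lymphatic endothelial genes (diamonds); the vertical line is the limit of 1 FPKM, the dashed line the median gene and the dotted line 2-fold. Of the 33 blood genes 26 lie above the median line, over a wide range of levels, with Cldn5 at 1.85 and Gpihbp1 at 1.58 the highest of them, and Prox1 and Lyve1 lie left of the limit, where the pseudocount holds ratios near 0.

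Of the 37 genes, 4 share a locus with another row of the table. Egfl7 hosts Mir126, which was at the lowest listed value of 0.001 in both libraries. Cd34 shares its locus with Gm16897, at 4.40 FPKM in KO and 2.08 FPKM in WT. Eng shares one with Fpgs, at 8.81 FPKM in KO and 9.19 FPKM in WT. Nos3 shares one with Atg9b, at 1.35 FPKM in KO and 0.773 FPKM in WT. The neighbours of Cd34, Eng and Nos3 were much lower than those genes, and the sources used here do not say whether counting used strand.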

How the data were processed

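Expression was measured by polyA RNA-seq in 2 libraries, 1 of Pax7 KO and 1 of WT cultures. Per the file headers, the authors deposited FPKM values for both libraries and, in lists of higher and lower genes, a fold ratio, KO over WT. The submitters' processing notes name the mm9 build with Cuffdiff 2.1.1, Cufflinks 2.1.1 and TopHat2 2.0.9, with no role given. Columns were used as deposited, and rows of 1 repeated symbol were summed. Log2 ratios used a pseudocount of 1, which understates changes of low genes, a minimum mean FPKM of 1 and a 2-fold limit. No test between the genotypes was run.

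Fragments were estimated from FPKM and the longest GENCODE M21 transcript less 80 bases: in genes with 1 transcript and few fragments, 75.7% (KO, 853 genes) and 76.6% (WT, 773 genes) of values then fell within 0.2 of a whole number. Ratios and intervals were run on simulated data drawn with counting error alone and the same transcript lengths. Such data cannot test the choice of transcript length or the spread between cultures. Of 20652 loci, end minus start equalled the RefSeq length in 7162 and was 1 short in 455, so 1 was added to starts. All 37 members are reported; of each pathway list up to 4 genes with the largest ratios are named, of each marker list up to 3 of the most abundant. Vegfa, Angpt1, Etv2, Mmrn1, Stab2, Kcne3, Tcf15, Pax7, Fgfr4, Kcnj8, Adipoq, Krt6a, Ptprc, Csf1r, Aif1 and Itga2b were named after their values were seen. Members and lists were chosen with earlier results of these data known. Analysis used scipy 1.17.1, pandas 2.3.3 and numpy 2.4.6 under Python 3.11.15, with matplotlib 3.10.9 for figures.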

Additional observations from a re-analysis of the deposited data

How the results depend on the processing

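The count of 8 blood genes at least 2-fold higher depended on the scaling and the limit. It was 2 when centred on the median gene, with upper-quartile scaling, with both columns brought to the same summed FPKM and when centred without a pseudocount (the last 2 chosen after seeing the data), beside 1.3% to 2.31% of all genes. At a 1.5-fold limit it was 21, beside 30.0% of all genes. Across the other settings it was 6 to 9, beside 2.7% to 9.93% of all genes. Their median log2 ratio of 0.78 was 0.35 when centred, 0.29 with upper-quartile scaling, 0.31 at the same summed FPKM and 0.30 when centred without a pseudocount, so it stayed above 0 under each setting run. The median of the lymphatic genes, 0.36, reversed to -0.059 when centred, -0.11 with upper-quartile scaling, -0.094 at the same summed FPKM and -0.093 when centred without a pseudocount. It was 0.0068 with no filter, which adds Prox1 and Lyve1, and 0.026 with Flt4 counted as blood. The lymphatic count of 0 became 1 (Flt4) at a 1.5-fold limit, beside 30.0% of all genes. Of the other endothelial genes, 6 were 2-fold higher, 10 with a pseudocount of 0.1 (9.39% of all genes), 11 with none (9.93%, leaving out genes at the lowest listed value), 26 at 1.5-fold (30.0%), and 0 when centred, with upper-quartile scaling, at the same summed FPKM or when centred without a pseudocount. No paired analysis was possible because each genotype has 1 library. Depth limits Prox1, Lyve1 and Tal1, and 1 library per genotype leaves the spread between cultures unknown.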
